A study of Danio rerio with 18 samples.

Results

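The genes described here encode proteins of the cardiac sarcomere, and they were chosen by symbol from a list of 9: tnnt2a, tnni1b and tnnc1a (the troponin complex), actc1a (actin), tpm4a and tpma (tropomyosin), actn2 (alpha-actinin), mybpc3 (cardiac myosin binding protein C) and ttna (titin). Of the 9 symbols, 7 were rows of the expression table, which held 15268 genes, and actn2 and ttna were not. The row actn2b, for which RefSeq gives actn2 as a synonym, is not among the 7 and is described beside them as the alpha-actinin of the table. No row for ttna, ttnb, ttn.1 or ttn.2 was found, so titin is not described.

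Heart tissue of zebrafish of the TAB line, a hybrid of AB and Tubingen fish, was taken after the ventricular apex had been cut off, on day 0, day 6 or day 9 post amputation (dpa). RNA was sequenced in 2 libraries per time point, which the study calls biological replicates, and every library is from the regenerating or freshly cut heart, with no library from an uncut heart. The labels do not say how many fish went into a library or whether replicates came from separate fish, so the p-values measure the spread between these libraries, which may in part be technical. The other 12 samples of the series (chromatin libraries of H3K9ac and H3K9me3, and a PAC2 cell culture treated with Krt5 and Noggin) were not analysed here.

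In a striated muscle cell, thin filaments of actin slide past thick filaments of myosin. Tropomyosin lies along the actin, and the troponin complex moves it when calcium binds to troponin C, which opens the myosin binding sites. Thin filaments are anchored at the Z-disc by alpha-actinin, and myosin binding protein C sits on the thick filament, so mybpc3 is listed with the thin filament genes but is not one of them. When the zebrafish heart regenerates, cardiomyocytes at the wound border take apart part of this machinery, divide and build it up again.

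Expression is given as FPKM, in which the fragments of a gene are divided by transcript length and by the library's mapped fragments, so levels of different genes can be compared per length. The heart markers were present in all 6 libraries: myl7, the heart's regulatory myosin light chain, had 13278 to 30405 FPKM, nppa (atrial natriuretic peptide) 1848 to 4482 FPKM and the transcription factor nkx2.5 had 137 to 240 FPKM. The symbol vmhc, ventricular myosin heavy chain, is a synonym of the row myh7 in RefSeq, and that row had 66.1 to 219 FPKM, whereas a separate row, myh7l, had 1503 to 3110 FPKM. Which of the 2 rows holds the ventricular myosin heavy chain could not be settled here. Summed FPKM over all genes differed between libraries, with 1330111 and 914654 on day 0, 842513 and 803421 on day 6 and 1056586 and 958048 on day 9. FPKM keeps no read counts, so the precision of a value is known only from the 2 libraries of a time point.

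The 0 dpa libraries stood further apart than the others. Across all genes the correlation between replicates of log2(FPKM + 1) was 0.926 for day 0, 0.95 for day 6 and 0.972 for day 9. All 7 members were higher in replicate 1 than in replicate 2 of 0 dpa, with a median log2 ratio of 1.06, against 0.24 over the 9363 genes that entered the fit. Of those 9363 genes, 6264 were higher in replicate 1 and 3067 in replicate 2. In the opposite direction, all 23 macrophage and neutrophil genes in the table were higher in replicate 2 (median log2 ratio of replicate 1 to replicate 2, -2.30), and their summed FPKM was 1245 and 8711 on day 0, 4187 and 3539 on day 6 and 1980 and 1895 on day 9. Of 25 cell cycle genes, 24 were also higher in replicate 2 of 0 dpa (median log2 ratio of replicate 1 to replicate 2 over the 25, -1.24). The summed FPKM of the 25 was 112 and 258 on day 0, 544 and 241 on day 6 and 300 and 333 on day 9. The part of these cell types in the levels of the sarcomere genes was not tested. In bulk tissue, fewer cardiomyocytes and less RNA per cardiomyocyte cannot be told apart.

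Among the genes of the troponin complex, tnnt2a, the cardiac troponin T that ties the complex to tropomyosin, had 4663 and 2219 FPKM at 0 dpa, 2349 and 2103 FPKM at 6 dpa, and 3063 and 2830 FPKM at 9 dpa. Both 9 dpa libraries lay above both 6 dpa libraries, replicate 1 of 0 dpa was highest of all 6, and replicate 2 of 0 dpa lay between the 2 libraries of 6 dpa. The troponin I gene tnni1b, whose product holds the filament inhibited at low calcium, had 1836 and 1081 FPKM at 0 dpa, 948 and 988 FPKM at 6 dpa, and 1475 and 1275 FPKM at 9 dpa. It was the only one of the abundant members whose 6 dpa libraries lay below both 0 dpa libraries. The calcium sensor of the complex, tnnc1a, had 6999 and 2566 FPKM at 0 dpa, 3559 and 2749 FPKM at 6 dpa, and 4712 and 3803 FPKM at 9 dpa, with 9 dpa above 6 dpa and a 0 dpa replicate on either side of all 4 later libraries.

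The filament itself showed the same picture. The cardiac actin gene actc1a had 22577 and 11007 FPKM at 0 dpa, 12752 and 11310 FPKM at 6 dpa, and 16596 and 13756 FPKM at 9 dpa. The tropomyosin gene tpm4a had 10560 and 5057 FPKM at 0 dpa, 6088 and 5639 FPKM at 6 dpa, and 8296 and 7109 FPKM at 9 dpa. For both genes, the 2 values of 9 dpa lay above those of 6 dpa, and all 4 lay between the 2 values of 0 dpa.

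The other tropomyosin gene, tpma, had low values in every library, with 1.72 and 0.512 FPKM at 0 dpa, 2.38 and 4.34 FPKM at 6 dpa, and 1.94 and 0.534 FPKM at 9 dpa. Its order was unlike that of the abundant members, with 6 dpa above both other time points and replicate 2 of 6 dpa highest. That library also held the highest value of 15 of the 21 skin epithelium genes and of 19 of the 30 skeletal muscle genes in the table, among the skeletal genes mylpfa, a fast skeletal myosin light chain, with 2.49 and 0.714 FPKM at 0 dpa, 12.2 and 34.2 FPKM at 6 dpa, and 9.73 and 2.72 FPKM at 9 dpa. Only 13 of these skin genes and 11 of these skeletal genes averaged 3 FPKM or more over the libraries. The share of all genes that were highest in that library was not computed, so how unusual these counts are is not known. The part of skeletal muscle or skin RNA in the tpma values was not tested.

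On the thick filament, mybpc3, whose product regulates how myosin heads reach the actin, had 1195 and 522 FPKM at 0 dpa, 689 and 566 FPKM at 6 dpa, and 923 and 750 FPKM at 9 dpa, again with 9 dpa above 6 dpa and 0 dpa on either side. At the Z-disc, actn2b, the alpha-actinin beside the members, had 1069 and 636 FPKM at 0 dpa, 1228 and 927 FPKM at 6 dpa, and 1537 and 1320 FPKM at 9 dpa. Here both 9 dpa libraries lay above all 4 earlier ones, and the 6 and 0 dpa libraries overlapped.

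**Figure D1:**
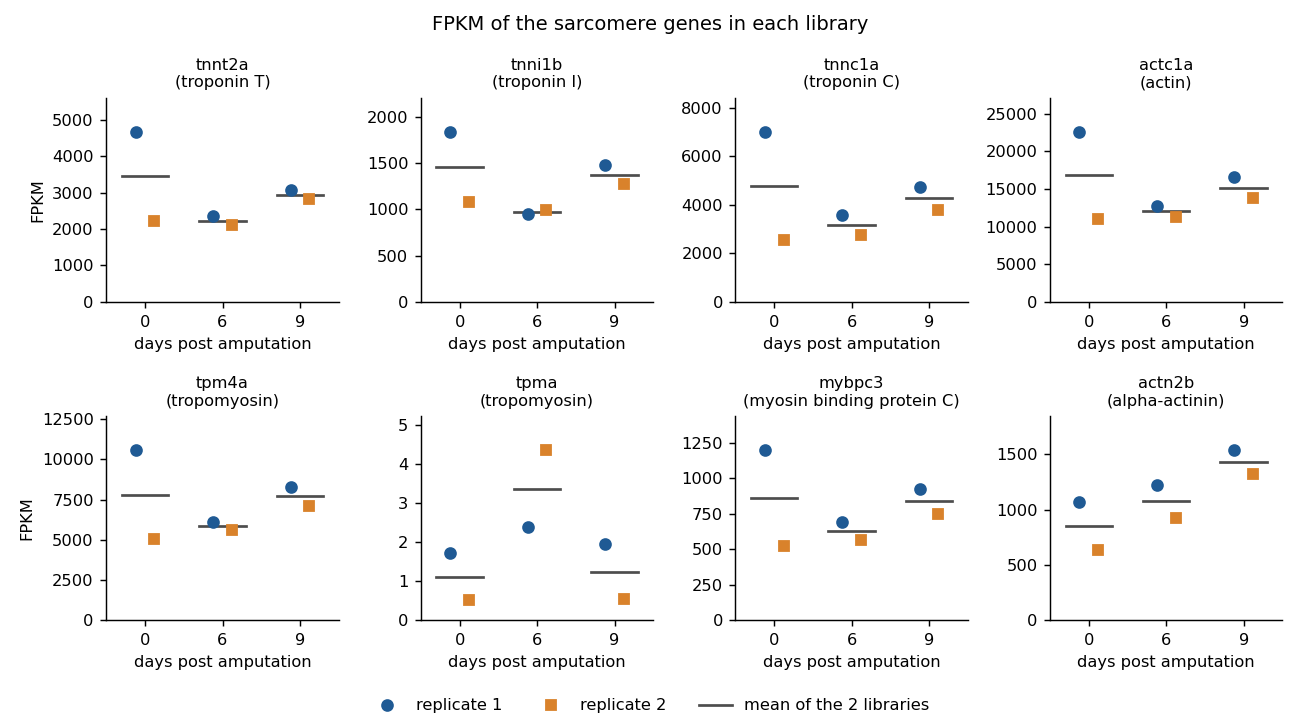
FPKM (linear axis from 0, a different scale in each panel) of the 7 members and of actn2b against days post amputation; circles are replicate 1, squares replicate 2 and lines the mean of the 2 libraries. The 2 points of 0 dpa enclose the 4 later ones for tnnc1a, actc1a, tpm4a and mybpc3, tpma is highest at 6 dpa with at most 4.34 FPKM, and actn2b is highest at 9 dpa.

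By level per length the 6 abundant members kept a single order in 6 of 6 libraries: actc1a, tpm4a, tnnc1a, tnnt2a, tnni1b and mybpc3, highest first. Within a library actc1a was 1.93 to 2.18 times tpm4a, and tnnt2a was 2.05 to 2.54 times tnni1b, and for these neighbours the ranges over the 6 libraries did not overlap between genes at any time point. The other neighbours were closer. The ratio of tpm4a to tnnc1a was 1.51 to 2.05, that of tnnc1a to tnnt2a 1.16 to 1.54 and that of tnni1b to mybpc3 was 1.38 to 2.07, and for each of these pairs the 2 libraries of 1 gene overlapped those of its neighbour at 1 time point, 0 dpa. The seventh member, tpma, was below all of them by a wide margin in every library.

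The summed FPKM of the 6 abundant members as a share of the summed FPKM of all genes was 3.60% and 2.45% on day 0, 3.13% and 2.91% on day 6 and 3.32% and 3.08% on day 9. Their ratios to each other varied less between libraries than their levels did. Tpm4a was 0.459 to 0.517 times actc1a, tnnt2a 0.184 to 0.207 times actc1a and mybpc3 0.0474 to 0.0556 times actc1a over the 6 libraries. Described across the 6 libraries, which share the difference between the 0 dpa replicates, Pearson's r of log2(FPKM + 1) was 0.89 to 1.00 in the 15 pairs of these 6 genes and -0.22 to 0.03 between tpma and each of them. The 6 genes are therefore not 6 independent measurements of a time point.

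The same ratio was taken for alpha-actinin. The ratio of actn2b to actc1a, which does not depend on the scaling of a library, was 0.0473 and 0.0577 on day 0, 0.0963 and 0.0819 on day 6 and 0.0926 and 0.0960 on day 9. The 4 libraries of 6 and 9 dpa were all above both 0 dpa libraries. The same held for the ratio of tpm4a to actc1a, by less. It was 0.468 and 0.459 on day 0, 0.477 and 0.499 on day 6 and 0.500 and 0.517 on day 9. A ratio to actc1a that was higher without overlap was common at 6 dpa against 0 dpa, in 36.3% of the genes tested, and was found in 19.0% of them at 9 dpa against 0 dpa.

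At 6 dpa against 0 dpa, the question is which sarcomere genes changed while the wound region was in its early regrowth. The abundant members were lower by 0.32 (tpm4a) to 0.54 (tnni1b) on the log2(FPKM + 1) scale of the fit, and none of them passed the test. Following the criteria in the study's methods, a gene was called if its p was below 0.05, if it differed by 1.5-fold or more and if it averaged 3 FPKM or more in a time point of the comparison. The test was limma on log2(FPKM + 1) in place of a count test. By these criteria 0 of the 7 members were called, and 0 had an unadjusted p under 0.05, while 15.4% of the 9275 genes tested were called. The limma values were a log2 fold change of -0.54 for tnni1b (SE 0.33, 95% interval -1.31 to 0.23, adjusted p = 0.48) and of -0.53 for tnnt2a (SE 0.37, interval -1.40 to 0.34, adjusted p = 0.539). For tnnc1a it was -0.44 (SE 0.46, interval -1.51 to 0.63), for actc1a -0.39 (SE 0.36, interval -1.22 to 0.43), for mybpc3 -0.34 (SE 0.42, interval -1.31 to 0.63) and for tpm4a -0.32 (SE 0.37, interval -1.17 to 0.53), with adjusted p-values of 0.638 to 0.739. Each of these intervals includes both no change and a level 2-fold lower.

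The remaining 2 values of that comparison were positive. Tpma had a log2 fold change of 1.07 (SE 0.57, interval -0.27 to 2.40, adjusted p = 0.425), with both 6 dpa libraries above both 0 dpa libraries, as was the case for 22.9% of the genes tested. It entered the test only through its average of 3.36 FPKM at 6 dpa, against 1.12 FPKM at 0 dpa. For actn2b the log2 fold change was 0.37 (SE 0.35, interval -0.43 to 1.18, adjusted p = 0.651). Tnni1b was the 1 member whose libraries did not overlap in the direction of lower values, which held for 22.8% of the genes tested. The median over the 7 members was -0.39, against 0.00 over all genes tested.

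Set against 0 dpa, the abundant members at 9 dpa were on average near their 0 dpa level, with log2 fold changes between -0.13 and 0.07. Of the 7 members 0 were called and 0 had an unadjusted p under 0.05 by limma, against 12.5% of the 9015 genes tested, and none had libraries without overlap. The values were -0.13 for tnnt2a (SE 0.37, interval -1.0 to 0.74), -0.06 for actc1a (SE 0.36, interval -0.89 to 0.77), -0.04 for tnni1b (SE 0.33, interval -0.81 to 0.73), 0.00 for tnnc1a (SE 0.46, interval -1.07 to 1.07), 0.07 for tpm4a (SE 0.37, interval -0.78 to 0.92) and 0.07 for mybpc3 (SE 0.42, interval -0.90 to 1.05). Tpma was below 3 FPKM at both time points and was not tested. The intervals are wide, and a p that misses the threshold does not show that the levels were alike. The median was 0.00 over the 7 members and -0.03 over all genes tested. Actn2b had the largest difference of the 8 genes, with 1428 FPKM at 9 dpa and 852 FPKM at 0 dpa on average and a log2 fold change of 0.79 (SE 0.35, interval -0.02 to 1.59, adjusted p = 0.414). Its 9 dpa libraries were both above its 0 dpa libraries, as in 20.2% of the genes tested, and it did not pass the test.

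The comparison of 9 dpa with 6 dpa asks whether sarcomere RNA differed between the later and the earlier stage of regrowth. Each of the 6 abundant members had both 9 dpa libraries above both 6 dpa libraries. That pattern held for 18.4% of the 9157 genes tested, and since the 6 genes varied together they are not 6 separate counts. The log2 fold changes were 0.50 for tnni1b (SE 0.33, interval -0.27 to 1.27), 0.44 for tnnc1a (SE 0.46, interval -0.63 to 1.51), 0.41 for tnnt2a (SE 0.37, interval -0.47 to 1.28), 0.41 for mybpc3 (SE 0.42, interval -0.56 to 1.39), 0.39 for tpm4a (SE 0.37, interval -0.46 to 1.24) and 0.33 for actc1a (SE 0.36, interval -0.50 to 1.16). By limma 0 of the 7 members were called and 0 had an unadjusted p under 0.05, against 3.41% of all genes tested, and every adjusted p was 1.0. Tpma was lower at 9 dpa, with 1.24 FPKM at 9 dpa and 3.36 FPKM at 6 dpa on average (log2 fold change -1.0, SE 0.57, interval -2.33 to 0.33, adjusted p = 1.0), and its libraries did not overlap, which held for 18.1% of genes in that direction. Actn2b had 0.42 (SE 0.35, interval -0.39 to 1.22), also without overlap. The median was 0.41 over the 7 members and -0.01 over all genes tested. With 2 libraries against 2, an exact permutation test has 3 splits and cannot give a p below 0.333, so none is given.

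The comparisons with 0 dpa rested on which 0 dpa library was used. Without replicate 1 of 0 dpa, the median of the members was 0.21 at 6 dpa against 0 dpa, with 0 called, and 0.49 at 9 dpa against 0 dpa, with 3 called: tnnc1a at 0.72, mybpc3 at 0.67 and tpm4a at 0.60, all higher. Without replicate 2 of 0 dpa, the median was -0.92 at 6 dpa against 0 dpa, and tnnt2a, tnni1b, tnnc1a, actc1a, tpm4a and mybpc3 were all called as lower, by between 0.85 (tpm4a) and 1.16 (tnnc1a) on the log2 scale. For 9 dpa against 0 dpa it was then -0.52, with tnnc1a at -0.73 and tnnt2a at -0.66 called as lower. In these fits the lone library of 0 dpa is assumed to vary as the other time points do. The direction of tnnt2a, tnnc1a, actc1a, tpm4a and mybpc3 relative to 0 dpa is thus not settled by these libraries. With each library left out in turn, tnni1b stayed negative at 6 dpa against 0 dpa, from -0.92 to -0.16. Tpma, at low FPKM, stayed positive there, from 0.64 to 1.49. Their intervals in the full fit included no change, and both changed sign at 9 dpa against 0 dpa. At 9 dpa against 6 dpa the median of the members stayed between 0.27 and 0.50 when each library was left out. It moved more with the scaling, from 0.12 at the same sum of FPKM to 0.55 when centred on cardiomyocyte genes outside the sarcomere. As a share of all FPKM, the 6 abundant members overlapped between day 6 (3.13% and 2.91%) and day 9 (3.32% and 3.08%).

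**Figure D2:**
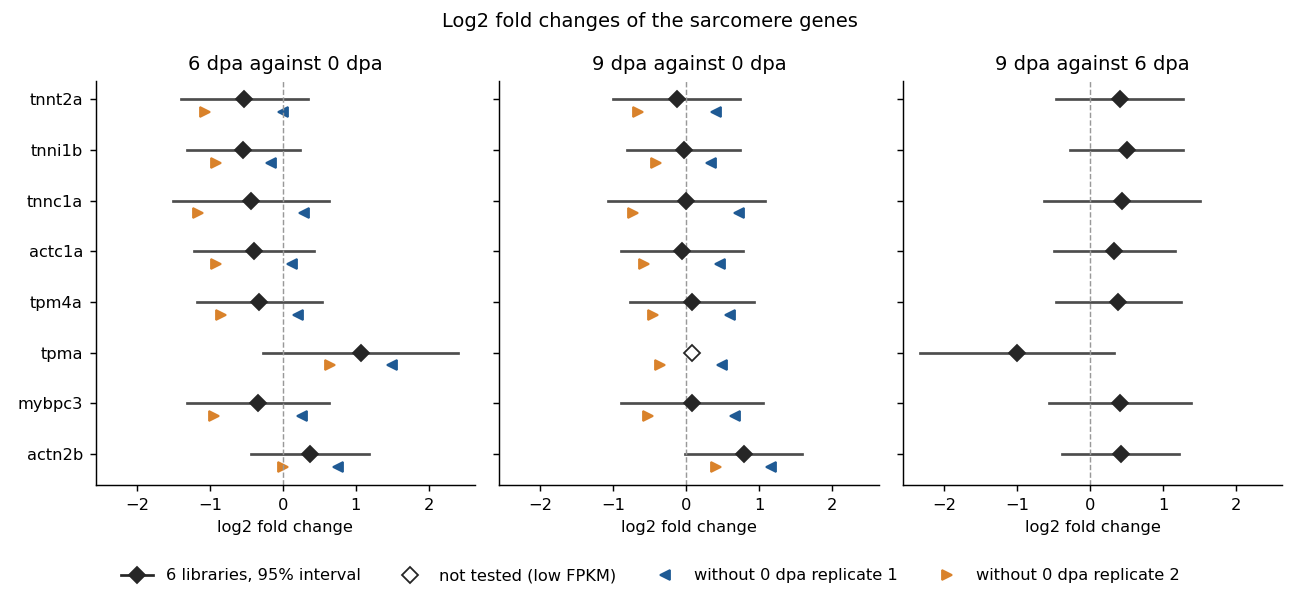
Log2 fold changes on the log2(FPKM + 1) scale for each of the 3 comparisons; diamonds are the fit of 6 libraries, lines its 95% interval, the open diamond a gene too low to be tested, and triangles the values when either 0 dpa library is left out. The abundant members sit below 0 at 6 dpa and near 0 at 9 dpa against 0 dpa, and the triangles fall on both sides of 0 for most of them, as in tnnc1a at 9 dpa against 0 dpa with 0.72 and -0.73.

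The fold changes also moved with the scaling between libraries. A scaling multiplies a whole library by 1 factor, so it moves the members and all other genes together and cannot change the distance of the members from the median gene by much. Haemoglobin genes, from red blood cells, had a summed FPKM of 117400 and 71030 on day 0, 22850 and 21760 on day 6 and 108500 and 87380 on day 9. Rescaling each library to 1 sum without them put the median of all genes tested at 0.32, 0.12 and -0.18 in the comparisons of 6 with 0, 9 with 0 and 9 with 6 dpa, and that of the members at -0.05, 0.15 and 0.22. The share of all called genes that were higher was 51.1% at 6 dpa against 0 dpa with the values as deposited, and 83.6% without haemoglobin, 88.3% at the same sum of FPKM and 74.9% when centred on the cardiomyocyte genes. For 9 dpa against 0 dpa it was 54.4% as deposited and 72.9%, 70.3% and 91.5% under those scalings. For 9 dpa against 6 dpa it was 58.3% as deposited, 74.2% with median-ratio scaling, and 26.6%, 11.1% and 90.4% under those scalings.

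Scaling changed few calls of the members. Tpma was called higher at 6 dpa against 0 dpa without haemoglobin (1.32) and at the same sum of FPKM (1.38), and tnni1b was called higher at 9 dpa against 6 dpa when centred on the cardiomyocyte genes (0.65). Actn2b was called higher at 6 dpa against 0 dpa in 4 of the 16 alternatives and at 9 dpa against 0 dpa in 6 of the 16. In the comparison of 9 with 0 dpa its log2 fold change was 1.16 without replicate 1 of 0 dpa and 0.94 without haemoglobin, and it was called in both.

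To compare the members with other heart RNA, each was set against the median of 28 cardiomyocyte genes outside the sarcomere (transcription factors, creatine kinases, natriuretic peptides, channels) in the same library. These genes were listed by name, and ckma is also on the skeletal muscle list. In bulk tissue it is not known that all their RNA came from the cells that hold the members. This log2 ratio does not depend on the scaling of a library, but it does depend on the genes it is taken against, and it is a description with no test. The reference is a median of levels, so it need not follow the changes of its genes. In log2(FPKM + 1) it was 7.797 and 6.839 on day 0, 7.161 and 6.918 on day 6 and 7.09 and 6.696 on day 9. Of the 28 genes, 23 were higher at 9 dpa than at 6 dpa. The median log2 fold change of the 28 was 0.31 there, and -0.53 at 6 dpa against 0 dpa. Small differences in the ratio, and their sign, can therefore come from how the reference was formed. On the scale of this ratio tnnt2a was at 4.40 and 4.29 on day 0, 4.05 and 4.13 on day 6 and 4.5 and 4.78 on day 9. Tnni1b was at 3.05 and 3.25 on day 0, 2.74 and 3.04 on day 6 and 3.45 and 3.63 on day 9. For both genes the 6 dpa libraries were below the 0 dpa libraries and the 9 dpa libraries were above all the others, and the replicates of 0 dpa now lay close together.

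Tpm4a was at 5.58 and 5.48 on day 0, 5.42 and 5.56 on day 6 and 5.94 and 6.11 on day 9, and actc1a was at 6.67 and 6.60 on day 0, 6.49 and 6.56 on day 6 and 6.94 and 7.07 on day 9. Mybpc3 was at 2.43 and 2.2 on day 0, 2.28 and 2.24 on day 6 and 2.77 and 2.87 on day 9. Tnnc1a was at 4.98 and 4.50 on day 0, 4.65 and 4.52 on day 6 and 5.12 and 5.21 on day 9. Its 0 dpa replicates stayed further apart than those of tpm4a, actc1a and mybpc3. In all of these genes the 9 dpa libraries were above all 4 earlier libraries, whereas 6 and 0 dpa overlapped in tnnc1a, tpm4a and mybpc3. At 9 dpa against 0 dpa, 6 of the 7 members were higher without overlap, where 40.4% of all genes tested were, and the median difference was 0.43 for the members and 0.40 for all genes above 0 in every library. Between 9 and 6 dpa, 6 of 7 were higher and 1, tpma, was lower, where 28.5% and 10.9% of all genes were, with a median of 0.55 for the members and 0.14 for all genes. At 6 dpa against 0 dpa, 3 of 7 were lower and 1 was higher, where 9.91% and 31.3% of all genes were, with medians of -0.11 and 0.28. A median gene therefore moved by 0.40 on this scale at 9 dpa against 0 dpa, as much as the members did.

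On this scale actn2b was at 2.27 and 2.49 on day 0, 3.11 and 2.95 on day 6 and 3.51 and 3.68 on day 9, with no overlap between any of the time points. Unlike the abundant members, it was higher without overlap at 6 dpa than at 0 dpa. Tpma was at -7.01 and -7.79 on day 0, -5.90 and -4.79 on day 6 and -6.12 and -7.59 on day 9. Against 20 calcium handling genes in place of the 28, the median difference of the members was 0.09 at 6 dpa against 0 dpa, 0.30 at 9 dpa against 0 dpa and 0.22 at 9 dpa against 6 dpa, against 0.48, 0.27 and -0.20 over all genes. In the same comparisons, 2, 4 and 4 of the 7 were higher without overlap, where 45.5%, 34.1% and 8.21% of all genes were. Against the calcium handling genes, actn2b was at 3.52 and 3.67 on day 0. It was at 4.66 and 4.25 on day 6 and at 4.6 and 4.77 on day 9. Both later time points were still above day 0, but days 6 and 9 overlapped, with a difference of 0.23. The separation of actn2b between 6 and 9 dpa therefore depended on the reference genes. The same was true of several members. Against the calcium handling genes, 6 and 0 dpa overlapped for tnnt2a and tnni1b (difference -0.05 each) and for actc1a (0.09). Of the abundant members, tnnt2a and tnnc1a overlapped at 9 dpa against 0 dpa, and tnnt2a and actc1a at 9 dpa against 6 dpa.

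**Figure D3:**
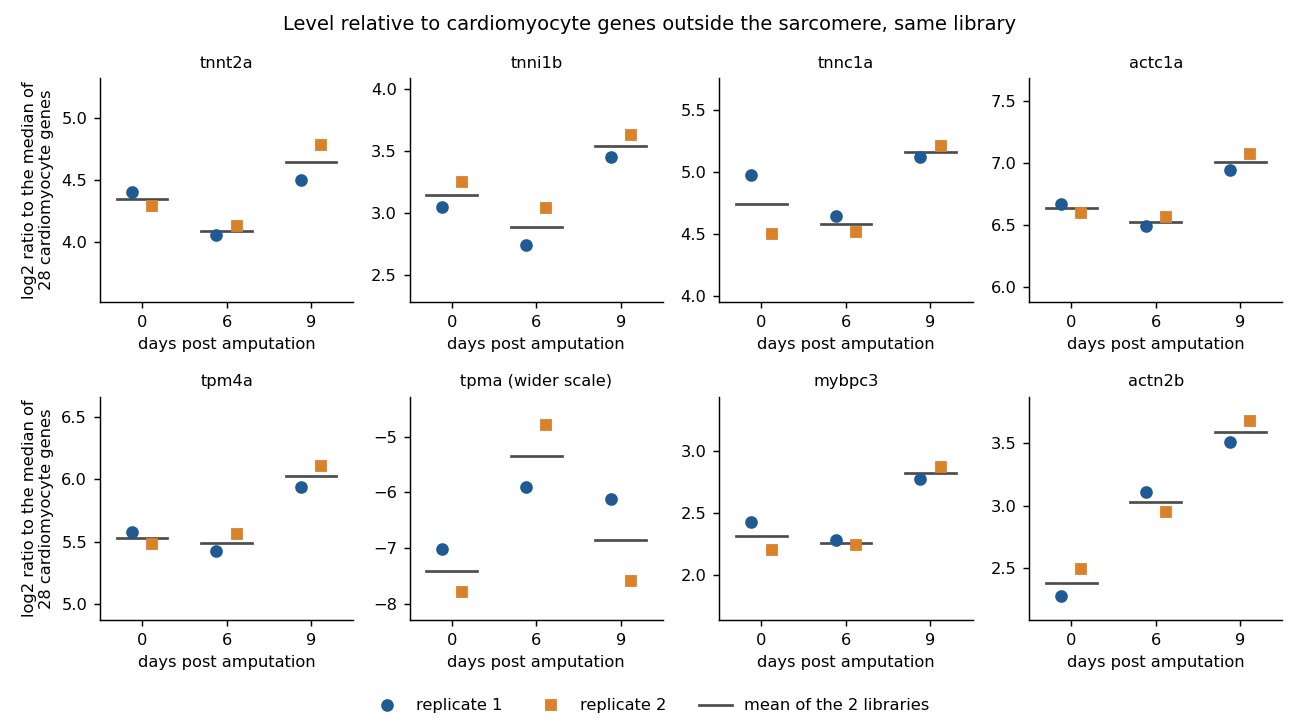
Log2 ratio of each gene's FPKM to the median of 28 cardiomyocyte genes outside the sarcomere in the same library, against days post amputation; every panel spans the same range of log2 units except that of tpma, which is wider. For the abundant members the 2 libraries of 9 dpa are the highest, for example 6.94 and 7.07 for actc1a, and actn2b steps up at both 6 and 9 dpa. Against calcium handling genes, which are not drawn here, the 6 and 9 dpa libraries of actn2b, tnnt2a and actc1a overlap.

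Each abundant member was the main transcript of its family in the table, or shared that place with a paralog. Reads from close paralogs can be shared between them in the counting, so shares are approximate. Tnnt2a made up 99.5% to 99.9% of the FPKM of the 7 troponin T genes, mybpc3 99.1% to 99.8% of the myosin binding protein C genes and tpm4a 96.1% to 97.9% of the tropomyosin genes, of which tpma made up at most 0.0746%. Actn2b made up 90.0% to 96.0% of the alpha-actinin genes.

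Troponin I was the family with a divided supply. Tnni1b made up 47.1% and 47.3% on day 0, 51.2% and 56.2% on day 6 and 49.1% and 55.2% on day 9, and the rest came mostly from tnni4a, with 40.6% to 46.9% over the 6 libraries. The gene tnni4b.3 made up 10.5% and 7.29% on day 0, 0.763% and 2.09% on day 6 and 4.34% and 3.58% on day 9, so that every time point was separate from the others. In troponin C, tnnc1a held 77.6% to 91.1% and tnnc1b 8.86% to 22.4%. In sarcomeric actin, actc1a held 79.8% and 77.7% on day 0, 82.3% and 88.5% on day 6 and 83.6% and 80.6% on day 9. All 4 later values were above both of 0 dpa, the closest being 80.6% against 79.8%. Most of the remainder was acta1b, a paralog named for skeletal muscle actin, with 19.7% and 20.0% on day 0, 15.5% and 10.6% on day 6 and 15.2% and 17.8% on day 9. Other shares in these families also separated the time points. Tpm4a had 96.6% and 96.1% on day 0, 97.1% and 96.9% on day 6 and 97.9% and 97.5% on day 9. Actn2b had 92.6% and 90.0% on day 0, 94.1% and 93.3% on day 6 and 96.0% and 94.5% on day 9. All 4 later values of tnni1b were above both of 0 dpa. How often shares in families of other genes separate the time points in this way was not computed.

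**Figure D4:**
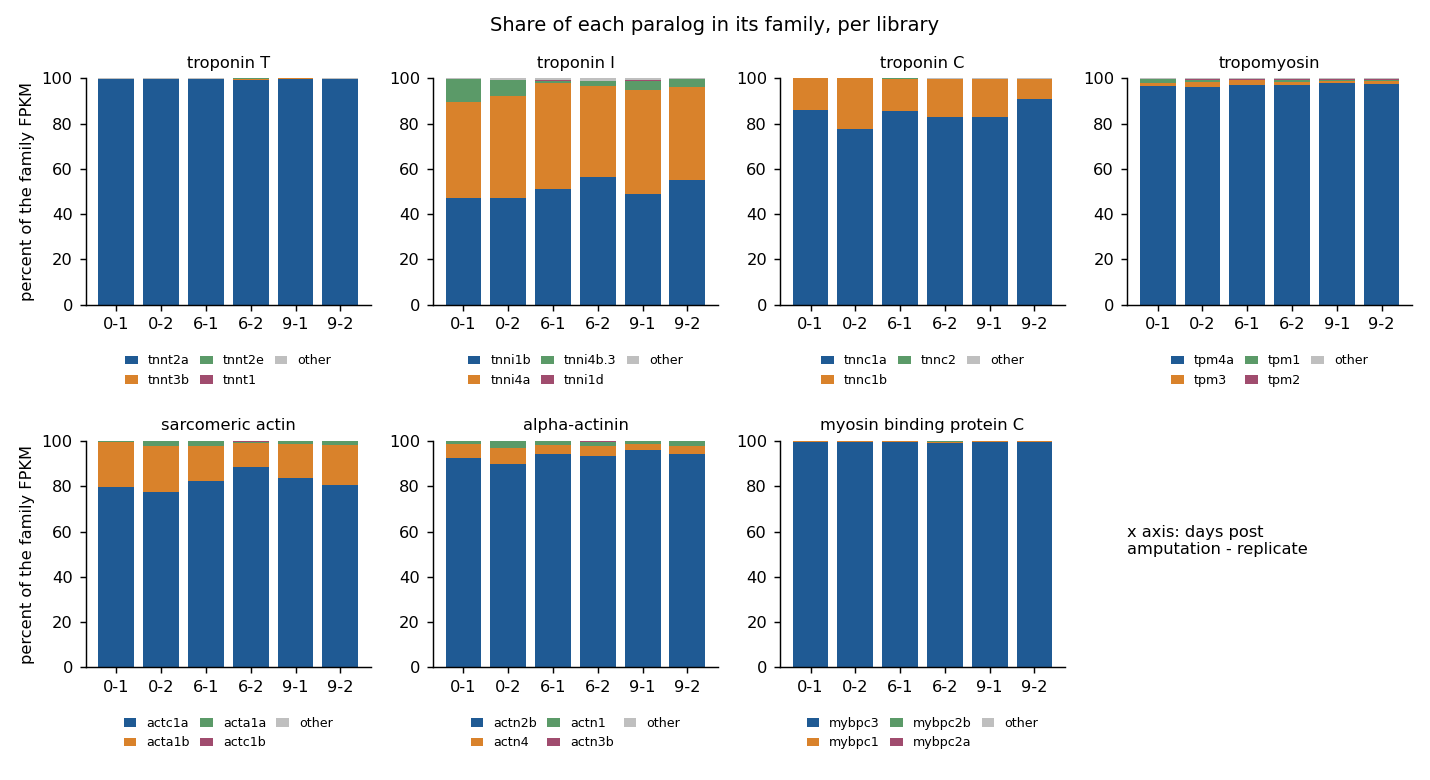
Stacked bars of each paralog's percent of the summed FPKM of its family, for the 6 libraries in order of days post amputation and replicate; colours show the 4 paralogs with the largest shares and grey the rest. Tnnt2a, tpm4a and mybpc3 fill nearly the whole bar of their family, whereas tnni1b shares troponin I with tnni4a and with a tnni4b.3 share that is 0.763% to 10.5%.

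Among the other genes of the thin filament, some passed the test in each direction. Of 29 such genes in the table (41 were listed), 18 were tested at 6 dpa against 0 dpa, and 6 were called higher and 3 lower, where 7.86% and 7.51% of all genes tested were called in these directions. Of those called higher, actc1b, tnni1d, tnnt3b and tnnc2 averaged under 3 FPKM at 0 dpa. They entered this test only through 6 dpa, where they were high, so the number called higher depends in part on the filter. Lmod2a, a leiomodin that acts at the pointed ends of actin filaments, rose to 54.6 and 52.9 FPKM at 6 dpa, against 10.9 and 5.98 FPKM at 0 dpa (log2 fold change 2.59, SE 0.34, adjusted p = 0.0307). It was as high at 9 dpa, with 64.0 and 42.9 FPKM (2.55 against 0 dpa, SE 0.34, adjusted p = 0.0323). Tmod4, a tropomodulin that caps the pointed end, had 82.3 and 81.7 FPKM at 6 dpa and 34.1 and 10.9 FPKM at 0 dpa (2.02, SE 0.51, adjusted p = 0.118).

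The actin gene actc1b had 12.5 and 31.8 FPKM at 6 dpa and 4.55 and 0.930 FPKM at 0 dpa (2.68, SE 0.58, adjusted p = 0.089), a level far below that of actc1a. The other genes called higher were tnni1d (1.76) and the fast skeletal genes tnnt3b (1.84) and tnnc2 (1.68), that are also on the skeletal muscle list. Without replicate 2 of 6 dpa tnnt3b was at 1.1 and tnnc2 at 1.15, without replicate 2 of 0 dpa they were at 1.37 and 1.44, and without replicate 1 of 0 dpa tnnc2 was at 1.92, none of which was called. Tnni1d averaged 6.32 FPKM at 6 dpa and 0.673 FPKM at 0 dpa, and without replicate 1 of 6 dpa its log2 fold change was 0.63, below the level for a test. It was also not called without replicate 1 of 0 dpa (2.11), without replicate 2 of 0 dpa (1.42) or without replicate 1 or 2 of 9 dpa (1.76).

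The largest fall among these 18 genes was that of the troponin I gene tnni4b.3, with 14.1 and 36.7 FPKM at 6 dpa and 407 and 166 FPKM at 0 dpa (-3.45, SE 0.56, adjusted p = 0.0477). At 9 dpa it had 130 and 82.7 FPKM, above 6 dpa (2.13, SE 0.56, adjusted p = 1.0) and below 0 dpa (-1.32, SE 0.56, adjusted p = 0.40). The second of these calls was lost when replicate 1 of 0 dpa was left out, with a value of -0.67, and when either 9 dpa library was left out (-1.64 without replicate 1 and -0.99 without replicate 2), and the first was lost without replicate 1 of 6 dpa (1.47). Tpm1 (-1.61, adjusted p = 0.276) and acta1b (-1.14, adjusted p = 0.249) were also called lower, and without replicate 1 of 0 dpa they were at -0.75 and -0.66 and were not called, as was the case for tpm1 without replicate 1 of 6 dpa (-0.92) and for acta1b without replicate 2 of 6 dpa (-0.73). Without either library of 9 dpa, whose spread enters the fit, neither was called. The median over the 18 genes was 0.02.

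In the comparison of 9 dpa with 0 dpa, 15 of the thin filament genes were tested, with 5 called higher and 1 lower, against 6.82% and 5.72% of all genes tested. Those higher were lmod2a, actc1b (2.39), tnni1d (2.02), tmod4 (1.64) and tpm2 (0.79), a tropomyosin with 34.8 and 34.7 FPKM at 9 dpa and 20.6 and 18.9 FPKM at 0 dpa. Of these, actc1b and tnni1d averaged under 3 FPKM at 0 dpa and entered this test only through 9 dpa. Without replicate 1 of 9 dpa, tmod4 was at 1.29 and tnni1d at 1.57, and neither was called, nor was tnni1d without replicate 2 of 0 dpa (1.67). Tpm2 was not called without replicate 2 of 0 dpa (0.73) or without either library of 9 dpa (0.78 and 0.79). At 9 dpa against 6 dpa, tnni4b.3 was the 1 gene called among 18, against 1.99% of all genes called higher.

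Among genes of the Z-disc and of the costamere, which ties it to the cell membrane, the largest falls were those of cryabb, tcap and fhl2b. Of 32 in the table, 25 were tested at 6 dpa against 0 dpa, and 8 were called lower, 1 was called higher and 16 were not called, with a median of -0.35. Over all genes tested, 7.51% were called lower and 7.86% higher. At 9 dpa against 0 dpa 6 of 25 were called lower and 1 higher, with 15 negative and 10 positive values and a median of -0.16. The shares over all genes were then 5.72% lower and 6.82% higher. Tcap, the titin cap at the Z-disc, had 122 and 129 FPKM at 6 dpa and 725 and 498 FPKM at 0 dpa (-2.25, SE 0.41, adjusted p = 0.0641). Bag3, a co-chaperone that clears damaged filamin at the Z-disc, had 20.0 and 19.9 FPKM at 6 dpa and 106 and 62.4 FPKM at 0 dpa (-1.97, SE 0.32, adjusted p = 0.0468), and was the 1 gene of the list that kept its call with the adjusted p. The small heat shock protein cryabb (-2.62, adjusted p = 0.0641) and fhl2b (-2.25, adjusted p = 0.129), a LIM domain protein, were also lower, followed by the calcineurin binding proteins of the Z-disc myoz2b (-1.67) and myoz1b (-1.55).

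The 1 Z-disc gene called higher was nexn (nexilin, an actin binding protein), with 81.7 and 58.1 FPKM at 6 dpa and 49.2 and 25.4 FPKM at 0 dpa (0.94, SE 0.38, adjusted p = 0.295). That call was lost without replicate 2 of 0 dpa (0.48) and without replicate 1 of 6 dpa (0.70), and without either library of 9 dpa, at 0.94. At 9 dpa nexn had 107 and 87.3 FPKM (1.43 against 0 dpa, SE 0.38, adjusted p = 0.206), which made it the only gene called higher among the 25, and those called lower included tcap at -2.09, cryabb at -2.65, fhl2b at -2.43 and bag3 at -1.15. Without replicate 2 of 9 dpa, bag3 was at -1.05 and was not called.

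Of 24 Z-disc genes tested at 9 dpa against 6 dpa, 2 were called, both higher: csrp3, a muscle LIM protein, at 0.85 (adjusted p = 1.0) and bag3 at 0.82 (adjusted p = 1.0). Bag3 lost this call when any 1 of the 4 compared libraries was left out (0.72 to 0.92), and csrp3 lost it without replicate 2 of 6 dpa (0.55) or either library of 9 dpa (0.67 without replicate 1 and 1.04 without replicate 2). Over all genes tested, 1.99% were called higher in this comparison. Of the 24, 21 were positive, with a median of 0.33, close to the 0.41 of the members.

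Thick filament and M-band genes, 20 in the table, had 15 tested at 6 dpa against 0 dpa, with 2 called higher and 3 lower and a median of -0.38. Over all genes tested, 7.86% were called higher and 7.51% lower. The myosin chaperone unc45b had 21.9 and 19.0 FPKM at 6 dpa and 74.0 and 49.9 FPKM at 0 dpa (-1.53, SE 0.30, adjusted p = 0.0751). Mylk3, the cardiac myosin light chain kinase, was at -0.96 (adjusted p = 0.176), and myl7 at -0.75 (adjusted p = 0.299), a call that was lost in 14 of the 16 alternatives. Without replicate 2 of 6 dpa, mylk3 was at -0.72 and not called. Myl7 was called without replicate 2 of 0 dpa (-1.16) but not without replicate 1 of 0 dpa (-0.34), without replicate 1 or 2 of 6 dpa (-0.71 and -0.79) or without either library of 9 dpa (-0.75). The skeletal genes myl10 (1.92, 0 FPKM in both 0 dpa libraries) and mybpc1 (1.11) were those called higher. Both averaged under 3 FPKM at 0 dpa, so they entered this test only through 6 dpa. Without replicate 2 of 6 dpa they were at 1.04 and 0.86 and too low for a test. Without any other 1 library except replicate 1 of 6 dpa, myl10 was at 1.92 and not called, and mybpc1 was not called without replicate 2 of 0 dpa (0.93) or without replicate 1 of 9 dpa (1.11). Of 13 tested at 9 dpa against 0 dpa, 1 was called, unc45b at -1.18, and at 9 dpa against 6 dpa 0 of 15 were called by limma, with a median of 0.35. The shares over all genes were 5.72% called lower at 9 dpa against 0 dpa and 3.41% called in either direction at 9 dpa against 6 dpa.

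Of the calcium handling genes, which release and take up the calcium that troponin senses, 20 were tested at 6 dpa against 0 dpa. None was called higher and 4 were called lower: the kinase camk2d2 (-1.99, SE 0.42, adjusted p = 0.0841), the sodium-calcium exchanger slc8a1a (-1.01, adjusted p = 0.249), the calcium store protein casq2 (-0.86, adjusted p = 0.323) and the calcium pump atp2a2b (-0.75). Over all genes tested at 6 dpa against 0 dpa, 7.86% were called higher and 7.51% lower. Atp2a2b was not called without replicate 1 of 0 dpa (-0.60) or replicate 2 of 6 dpa (-0.58). Without replicate 1 of 0 dpa, slc8a1a was at -0.56 and casq2 at -0.44 and neither was called, and without replicate 1 or 2 of 6 dpa slc8a1a was at -1.15 and -0.87, casq2 at -0.94 and -0.78, again not called, and without either library of 9 dpa slc8a1a (-1.01) and casq2 (-0.86) were not called. The median was -0.35 at 6 dpa against 0 dpa, -0.19 at 9 dpa against 0 dpa, where 1 of 19 was called (camk2d2 at -1.29, which was lost without replicate 1 of 0 dpa at -0.69 and without replicate 2 of 9 dpa at -1.08), and 0.21 at 9 dpa against 6 dpa. The 28 cardiomyocyte genes outside the sarcomere had 7 called lower and 0 higher at 6 dpa against 0 dpa, with a median of -0.53. Beside them, 13 of 18 epicardial and fibroblast genes were called higher at 6 dpa against 0 dpa and 10 of 18 at 9 dpa against 0 dpa, with medians of 1.18 and 1.04. Called higher at 6 dpa against 0 dpa were also 9 of 13 red blood cell genes other than haemoglobin (median 1.48), 6 of 13 skeletal muscle genes (1.43), 7 of 17 skin epithelium genes (1.36) and 8 of 23 cell cycle genes (0.91), and 6 of 14 endothelial genes were called lower (-0.57). At 9 dpa against 0 dpa the same lists had 10 of 13, 0 of 10, 1 of 8 and 5 of 22 called higher, and 1 of 13 endothelial genes called lower. A gene tested at 6 dpa but not at 9 dpa against 0 dpa averaged 3 FPKM or more only at 6 dpa. Such genes entered only through the time point where they were high. The counts and medians of the skin epithelium and skeletal muscle lists at 6 dpa depend in part on this filter. The shares over all genes tested at 9 dpa against 0 dpa were 6.82% called higher and 5.72% lower. At 9 dpa against 6 dpa, 23 of the 28 cardiomyocyte genes outside the sarcomere (median 0.31) and 10 of 14 endothelial genes (0.18) were positive. Negative were 19 of 20 macrophage and neutrophil genes (-0.84), 14 of 16 skin epithelium genes (-1.83), 8 of 13 skeletal muscle genes (-1.22) and 13 of 18 epicardial and fibroblast genes (-0.13). The same filter applies to the skin and skeletal lists here. The part of these cell types in the sarcomere values was not tested.

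Of 27 calls of single genes of these lists recomputed for 6 dpa against 0 dpa, 12 held in all 16 alternatives: actc1b, lmod2a, tmod4 and tnni4b.3 on the thin filament, tcap, bag3, cryabb, fhl2b, myoz1b and myoz2b at the Z-disc, and unc45b and camk2d2. Of 15 at 9 dpa against 0 dpa, 7 held, which were actc1b, lmod2a, nexn, tcap, cryabb, fhl2b and unc45b, and at 9 dpa against 6 dpa 0 of 3 held. None of these genes is a member. These calls use the unadjusted p, and the alternatives reuse the same 6 libraries. With the adjusted p of limma in the fit of 6 libraries, only lmod2a, tnni4b.3 and bag3 among them were called at 6 dpa against 0 dpa. At 9 dpa against 0 dpa only lmod2a was. Cryabb averaged 3 FPKM or more only at 0 dpa, and actc1b only at 6 and 9 dpa. Each of the 2 therefore entered these tests only through the time points where it was high.

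**Figure D5:**
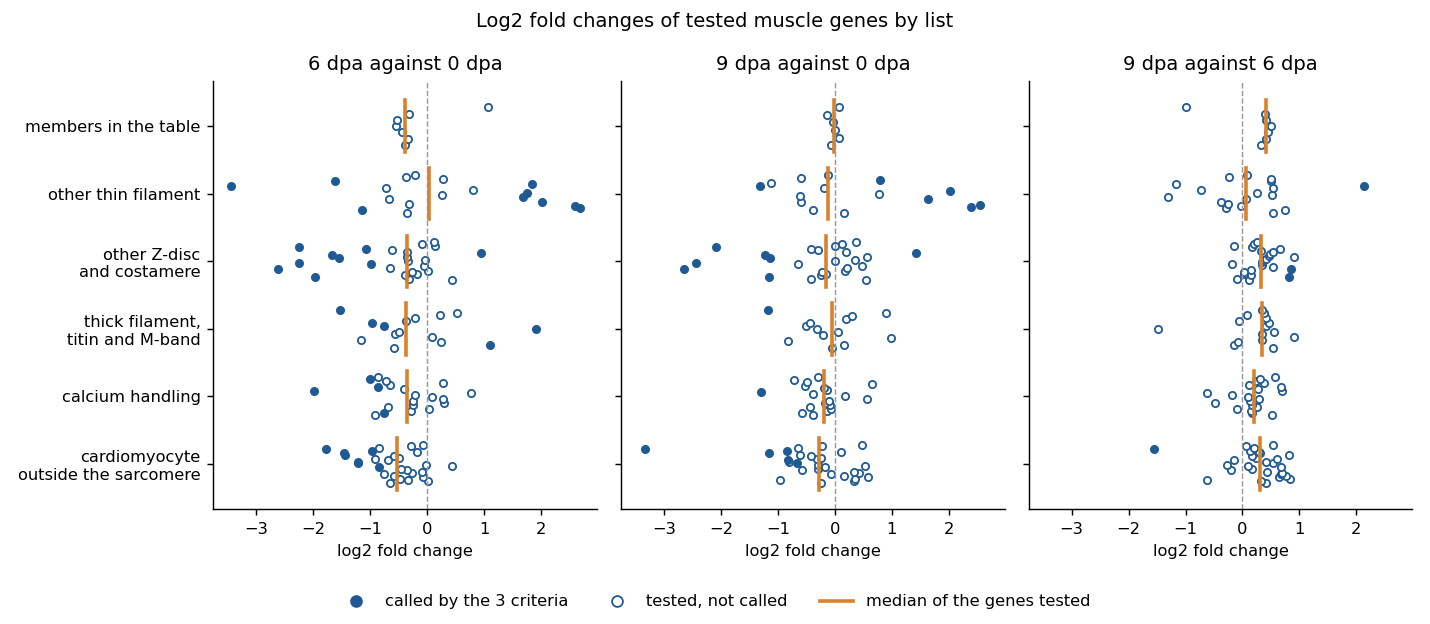
Log2 fold changes of every tested gene of 6 lists in the 3 comparisons; filled points are genes called by the 3 criteria, open points genes that were tested and not called, and bars the median of the genes tested. The members lie close together apart from tpma, with no filled point, while the other thin filament genes spread from -3.45 (tnni4b.3) to 2.68 (actc1b) at 6 dpa against 0 dpa.

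The genes whose pattern over the 6 libraries was most like the mean of the members, by Pearson's r among 9356 genes, were kyat1 (0.989), gspt1 (0.988), slc25a26 (0.988), ptpdc1a (0.987), prpf18 (0.987), cops7a (0.987), tax1bp1b (0.986), nfyc (0.986), rnf180 (0.984) and eif3hb (0.983). That mean was over all 7 members and so included tpma, whose r with the 6 abundant members was -0.22 to 0.03. Ranks against the 6 abundant members alone are not given. None of these 10 genes is on a muscle list, and all 6 points of each correlation share the difference between the 0 dpa replicates. Of the heart genes looked up beside them, the myosin light chain cmlc1 ranked 189 with 0.933, the muscle creatine kinase ckma 197 with 0.93, the calcium pump atp2a2a 416 with 0.889 and myl7 1139 with 0.779. Actn2b ranked 2930 with 0.542, the lowest of those looked up.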

How the data were processed

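The authors aligned paired reads of the RNA libraries to danRer10 with STAR. For the conversion to FPKM the paper names Cufflinks, whereas the sample records name Cuffdiff, and which of them gave the deposited values was not settled here. Versions of these tools and the gene annotation were not given in the sources used here. The deposited FPKM were used as given, with no further scaling. Limma 3.58.1 (R 4.3.3) was fitted to log2(FPKM + 1) of 6 libraries with time point as the only term, a trend in the prior, 3 residual degrees of freedom (prior 4.66, median), on 9363 genes averaging at least 3 FPKM in a time point. P-values are two-sided and adjusted by Benjamini-Hochberg over all 9363 genes of the fit. The fit was also run on simulated data with noise drawn independently for each gene and library. Such data hold no shared shift like that between the 0 dpa replicates, so they do not show how calls behave under it. Members and lists were chosen with earlier results of these data known. Beside the members, genes named were up to 3 with the largest rise and 3 with the largest fall among the called genes of each muscle list, the main paralogs, the 10 most alike and the tissue markers; myoz1b, myoz2b, atp2a2b, tnnt3b, tnnc2, tpm2, mylpfa, myh7l and the genes ranked for likeness beside the 10 were added after their values were seen. Symbols were matched to RefSeq by name or synonym. Alternatives were a pseudocount of 0.1, no filter or 1 FPKM, 4 other scalings, compared groups only, a replicate block, no trend and leaving out each library. Promoters and proteins were not analysed here. Figures used Python 3.11.15, numpy 2.4.6, pandas 2.3.3 and matplotlib 3.10.9.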

Additional observations from a re-analysis of the deposited data

How the results depend on the processing

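FPKM keeps no depth, and 2 libraries a time point limit every value. The calls of all genes were 1426, 1131 and 312 in the comparisons of 6 with 0, 9 with 0 and 9 with 6 dpa; they were 2448 and 515 in the first and last at the same sum of FPKM, 613 in the last with the compared groups only, and 985 to 2300, 586 to 1871 and 168 to 630 when each library was left out. With the adjusted p they were 66, 33 and 3, and over the alternatives from 8 (no filter) to 271 (same sum of FPKM) in the first, from 2 (without replicate 1 of 6 dpa) to 186 (without replicate 1 of 0 dpa) in the second and from 2 to 125 (without replicate 1 of 6 dpa) in the last. Member calls, 0 in each comparison, were 1 (tpma) without haemoglobin, without a trend and at the same sum in the first, 1 (tnni1b) when centred on the cardiomyocyte genes in the last, and 0 to 6 and 0 to 3 in the first and second with a library left out, where their median was -0.92 to 0.21 and -0.52 to 0.49. Relative to calcium handling genes the members' median was 0.09, 0.30 and 0.22.

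At 6 dpa against 0 dpa the sign turned at the same sum for actc1a (0.03), tpm4a (0.10) and mybpc3 (0.08), and without haemoglobin for tpm4a (0.02). For 9 dpa against 0 dpa it turned without haemoglobin, at the same sum and when centred for tnnt2a (0.03, 0.00, 0.30), tnni1b (0.12, 0.09, 0.39), tnnc1a (0.15, 0.13, 0.42) and actc1a (0.09, 0.07, 0.36). With each library left out, the values at 6 dpa against 0 dpa ran from -1.07 to 0.00 for tnnt2a, -1.16 to 0.29 for tnnc1a, -0.91 to 0.13 for actc1a, -0.85 to 0.21 for tpm4a, -0.94 to 0.26 for mybpc3 and 0.00 to 0.75 for actn2b. The sign did not turn for tnni1b (-0.92 to -0.16) or tpma (0.64 to 1.49). For 9 dpa against 0 dpa they ran from -0.66 to 0.41 for tnnt2a, -0.42 to 0.34 for tnni1b, -0.73 to 0.72 for tnnc1a, -0.58 to 0.46 for actc1a, -0.46 to 0.60 for tpm4a, -0.40 to 0.54 for tpma and -0.52 to 0.67 for mybpc3. The causes were not tested.

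The labels do not say whether replicate numbers pair the samples. Replicate differences showed no shared shift between time points (correlations of -0.085, 0.09 and 0.005), which cannot show that the samples were unpaired. With a replicate block 1527, 1214 and 353 genes were called, 12, 5 and 2 with the adjusted p, and 0 members; actn2b was called at 9 dpa against 0 dpa (0.79). The planned search of promoters was not run. The same sum of FPKM and the centring on cardiomyocyte genes were chosen after seeing the data.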
